A study of Sus scrofa with 31 samples.

Results

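Microglia sorted from the cerebellum and from the frontal cortex of young pigs were compared, 8 libraries from each region, which are 16 of the 31 RNA-seq libraries of the series. The members were taken by the brain region in the sample labels alone, and no expression value assigned a library to a region. The animals were male piglets of 24 to 26 days from Large White × Landrace sows and Duroc boars, with no genetic change described, born in standard housing or in pens with more freedom, sedated and scanned by MRI under isoflurane before death. Of the 10 pigs that gave either region, 6 gave both (ear tags 12599, 12750, 12758, 12847, 12891 and 12902), the cerebellum alone came from pigs 12583 and 12821, and the frontal cortex alone from pigs 12707 and 12720. Cells were freed by Dounce homogenisation on ice, cleared of myelin on Percoll and sorted as CD11b high and CD45 negative or low, the gate that holds microglia and should keep out most blood leukocytes. Each dissected region held grey and white matter, so region and the mix of the 2 tissues cannot be told apart. Hippocampal microglia (8 libraries), whole hippocampus (4) and alveolar macrophages (3) entered only as reference levels.

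Microglia are the resident macrophages of the brain parenchyma. They arise early in development from yolk sac progenitors, depend on the CSF1 receptor, and take up debris, synapses and dying cells through complement, TAM and Fc receptors, degrading them in lysosomes. Microglia of the cerebellum and of white matter are known in rodents for a more immune-vigilant and more phagocytic state than those of cortical grey matter. The comparison asked which genes carry such a regional difference in the pig.

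Libraries held 18438494 to 36417294 counts. A count of 3, taken as the lowest that can be told from absence, corresponded to 0.0824 to 0.163 CPM (counts scaled to a library of 1000000), and this covers counting error only. All 10 microglia markers, among them P2RY12, TMEM119, CX3CR1, CSF1R and SALL1, were present in every library, their summed level was 4638 to 9192 CPM in the cerebellum and 6195 to 8856 CPM in the frontal cortex, and none passed the threshold between regions by edgeR's quasi-likelihood test (5 of 10 at an unadjusted p under 0.05, where 16.8% of all tested genes were, none by limma-voom, 1 by DESeq2 and 2 by limma-voom with the pig as a block). In 9 of the 10 the cerebellar level was the lower, with a median log2 fold change of -0.211, and AIF1 and C1QA had an adjusted p under 0.05 (0.0171 and 0.039). Markers of the macrophages of the brain borders summed to 160 to 378 CPM in the cerebellum and 306 to 622 CPM in the frontal cortex, lower in the cerebellum in 6 of 6 pigs. Nearly all of this came from STAB1, SIGLEC1 and MS4A7, the 3 members tested, whose median log2 fold change was -0.638. STAB1, a scavenger receptor, had the smallest adjusted p of them (96.9 against 187 CPM at the median, adjusted p = 0.0351). The defining members MRC1, LYVE1 and CD209 were at a median of at most 0.658 CPM in either region. The part of these cells in any difference below was not tested.

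Several libraries stood apart. The frontal cortex library of pig 12599 had a median correlation of 0.852 with the other frontal cortex libraries, against 0.886 to 0.927 for the rest, and its summed oligodendrocyte markers (2152 CPM) and neuron markers (493 CPM) were the highest of the 16. The frontal cortex library of pig 12891 also had raised oligodendrocyte (1384 CPM) and granule neuron markers (203 CPM). The frontal cortex libraries of pigs 12750 and 12758 were closer to the cerebellar libraries (median r 0.940 and 0.927) than to their own group (0.917 and 0.914), and that of pig 12891 slightly so (0.894 and 0.886). No library was left out of the main comparison. Leaving out both libraries of pig 12599 gave 67 genes higher in the cerebellum and 54 higher in the frontal cortex.

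Markers of cerebellar granule neurons, the small neurons that fill the cerebellar cortex, had a higher median in the cerebellar libraries, with overlap. Their summed level was 90.2 CPM at the lowest, 190 at the median and 929 at the highest in the cerebellar libraries, and 35.9, 52.6 and 203 CPM in the frontal cortex libraries. Markers of neurons of any region summed to a median of 170 CPM (149 to 439) against 77 CPM (47.8 to 493), most of it from MAP2. Purkinje cell and other cerebellar neuron markers had 37.7, 75.8 and 249 CPM against 10, 13.7 and 80.6 CPM, higher in the cerebellum in 5 of 6 pigs. Astrocyte markers had 251, 398 and 514 CPM against 217, 270 and 502 CPM, also in 5 of 6 pigs, and the glutamate transporter SLC1A3, their 1 tested member, was 310 against 198 CPM at the median (adjusted p = 0.0545). GABRA6, a receptor subunit nearly confined to granule neurons in the brain, had no count in 7 of 8 frontal cortex libraries and in 1 of 8 cerebellar libraries, where its median was 3.53 CPM. Of the 12 markers of neurons of any region, 2 were abundant enough to be tested and ELAVL4, a neuronal RNA-binding protein, was called higher in the cerebellum (24.3 ± 5.12 against 13.3 ± 3.09 CPM, mean ± SD, n = 8 each). That call was lost with the pig as a block (adjusted p = 0.0686) and kept in 3 of the 16 fits that left out 1 library, with an adjusted p of 0.0164 without the cerebellar library of pig 12750. Whole hippocampus held 24.9 CPM of ELAVL4 and hippocampal microglia 18.1 CPM. The frontal cortex library of pig 12599, the highest for markers of neurons of any region, held 12.6 CPM of ELAVL4. The granule neuron marker FAT2 had 99.5 CPM at the median in the cerebellum and 8.02 CPM in the frontal cortex (log2 fold change 3.43 ± 0.79, adjusted p = 0.023, not past the threshold). Of the 13 granule neuron markers 2 were tested, FAT2 on the cerebellar side and the other on the frontal cortex side. FAT2 was a large part of the list's sum, at 531 of 929 CPM in the highest cerebellar library and 33.7 of 90.2 CPM in the lowest. Oligodendrocyte markers overlapped between regions (174 to 905 CPM against 183 to 2152 CPM) and none of the 3 tested passed. How much of any gene's difference came from these other cells was not tested. In sorted bulk samples, fewer cells of a type and less RNA per cell cannot be told apart.

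**Figure D1:**
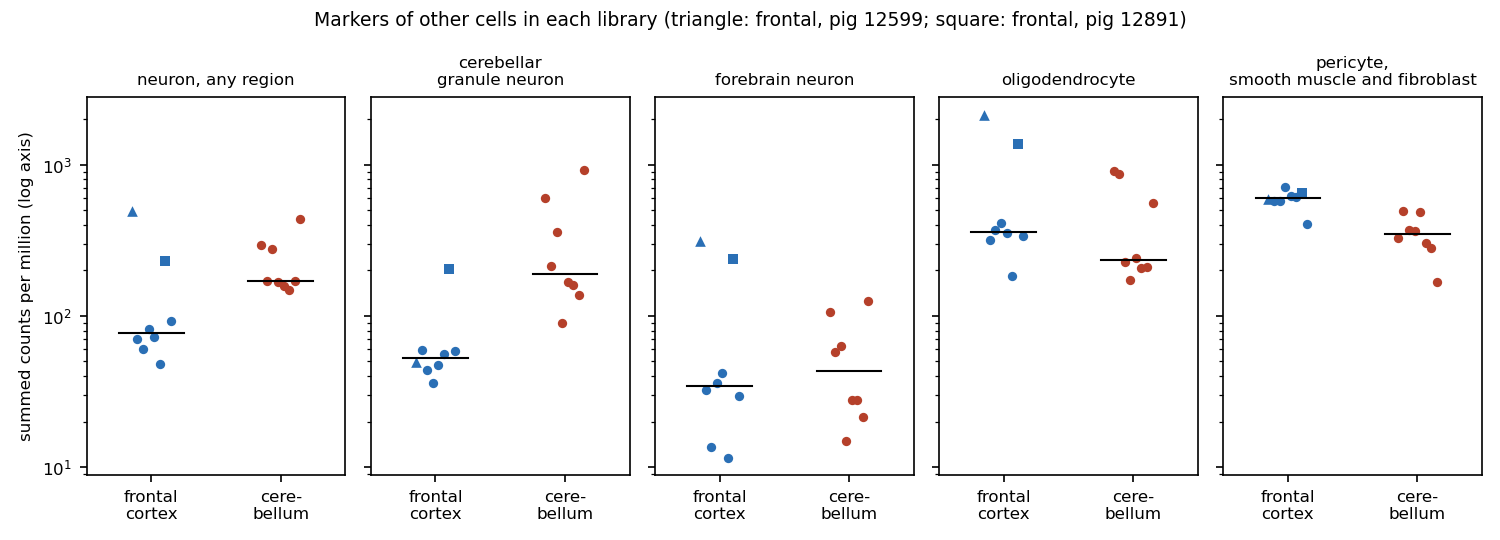
Summed CPM of marker genes of other cells (log axis) in the 8 frontal cortex (blue) and 8 cerebellar (red) microglia libraries, with the median of each group as a black bar. Granule neuron markers sat at 90.2 to 929 CPM in the cerebellum and 35.9 to 203 CPM in the frontal cortex, and the frontal cortex libraries of pigs 12599 (triangle) and 12891 (square) stood above the rest for oligodendrocyte markers at 2152 and 1384 CPM.

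Of 31907 genes in the table, 7792 had over 10 CPM in all 8 libraries of at least 1 region and were tested. Counts at an adjusted p under 0.05, used below for some lists, have a background of 305 genes (3.91%), 162 (2.08%) higher in the cerebellum and 143 (1.84%) higher in the frontal cortex. The gene lists were drawn up with earlier results of these data known, and several hold genes that the study named from these samples. Their leans and counts of calls are therefore not independent evidence. List members whose symbol was not matched to a single gene were not tested. At an adjusted p under 0.01 by edgeR's quasi-likelihood test on region alone, with pairing by animal not used, 104 genes (1.33% of those tested) differed. Of these, 59 (0.757%) were higher in cerebellar and 45 (0.578%) higher in frontal cortex microglia. Positive log2 fold changes mean a higher level in the cerebellum throughout. Their sizes ran from 0.555 to 2.62 in the cerebellar group, with 29 genes over 2-fold, and from -0.478 to -4.44 in the frontal cortex group, with 15 over 2-fold. TMM scaling centres the fold changes, and their median over all tested genes was -0.00205. Scaling by library size alone moved that median to -0.0737 and the split to 44 higher in the cerebellum and 51 higher in the frontal cortex.

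Within the 6 pigs that gave both regions, 59 of the 59 and 42 of the 45 called genes had the direction of the call in every animal. The libraries of these pigs also made the calls, so this agreement is not independent evidence. The 8 cerebellar values did not overlap the 8 frontal cortex values for 35 of the 59 and 27 of the 45, where 45 (0.578%) and 34 (0.436%) of all tested genes were so separated. With the pig as a block, which leaves the contrast to the 6 shared animals, 42 (0.539%) and 30 (0.385%) genes passed, 0.924% of those tested in all, and these held 28 of the 59 and 19 of the 45; all 104 kept their direction. Calls that survived the removal of any 1 library numbered 38 and 28, and 24 and 18 of these passed with the pig as a block as well. In limma-voom with the pig as a block, where animals with 1 region count too, 175 and 126 genes passed and these held 59 of the 59 and 45 of the 45. Below, the block means the edgeR fit, and genes whose call it lost are given with its adjusted p.

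**Figure D2:**
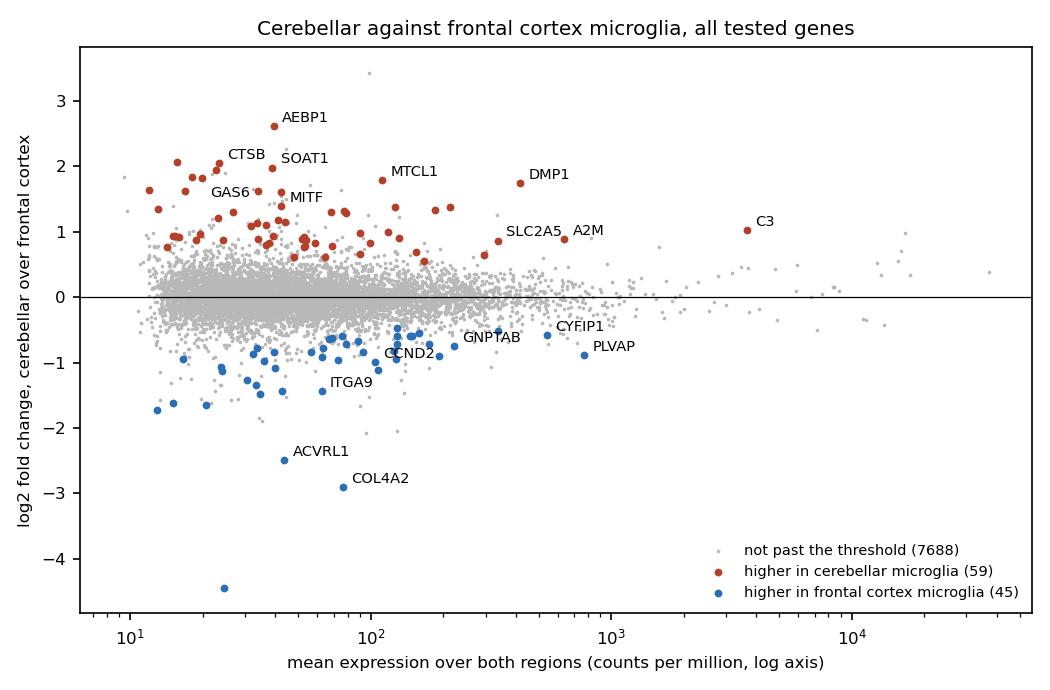
Log2 fold change of cerebellar over frontal cortex microglia (vertical axis) against mean expression over both regions in CPM (log axis) for the 7792 tested genes. The 59 genes higher in the cerebellum (red) and 45 higher in the frontal cortex (blue) spread over levels of expression up to that of C3, the most abundant of them. AEBP1 at 2.62 and COL4A2 at -2.90 were among those labelled.

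Complement was led by C3, the central component whose cleavage products tag material for uptake by CR3. C3 had 4014 CPM at the lowest, 4819 at the median and 6523 at the highest in the cerebellum and 1537, 2371 and 3066 CPM in the frontal cortex. All 8 cerebellar libraries lay above all 8 frontal cortex libraries, and the fold change was 1.03 ± 0.15 on the log2 scale (± SE, adjusted p = 0.000383). It was called in 1 of 12 tested complement genes, 9 of which were on the cerebellar side, with a median of 0.243. C2, a protease of the classical pathway, had a larger but more variable difference (62.6 to 128 against 2.27 to 60.8 CPM, without overlap, log2 fold change 1.71 ± 0.40, adjusted p = 0.0226). The C1q chains leaned the other way and did not pass, with log2 fold changes of -0.462 for C1QA, -0.323 for C1QB and -0.428 for C1QC. The complement list thus did not move as 1 block. The receptor chains ITGAM and ITGB2 (CR3) differed by 0.0865 and 0.153, neither called. A2M, a broad protease inhibitor of the same protein family as C3, was 829 ± 150 CPM in the cerebellum and 447 ± 84.7 CPM in the frontal cortex (adjusted p = 0.000383) and is named here after its values were seen.

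The list of MHC class II and antigen processing genes gave 2 calls in opposite directions among 14 tested genes. Their median was 0.0963 (0.19 to 0.63 within the 6 pigs that gave both regions, and 5 calls by limma-voom with the pig as a block). The class II chains SLA-DRA, SLA-DRB1 and SLA-DOB were not matched by symbol and were not tested. SLA-DQA1, an alpha chain of the pig class II molecule, had 11.4, 26.9 and 41.0 CPM (lowest, median, highest) in the cerebellum and 3.46, 7.91 and 18.4 CPM in the frontal cortex (log2 fold change 1.84 ± 0.35, adjusted p = 0.0044). The groups overlapped, through the frontal cortex library of pig 12891, the call was kept in 12 of the 16 fits that left out 1 library (adjusted p 0.0115 without the frontal cortex library of pig 12707), and it was lost with the pig as a block (adjusted p = 0.0365). CD74, the invariant chain that escorts class II molecules, had 453 CPM at the median in the cerebellum and 176 in the frontal cortex (log2 fold change 1.26 ± 0.26, adjusted p = 0.0105), higher in the cerebellum in 6 of 6 pigs but just outside the threshold. CIITA, the master regulator of class II genes, had a log2 fold change of 1.5 (adjusted p = 0.1). CD1D, which presents lipids instead of peptides and is not a class II molecule, was the gene called in the other direction. It was 89.6 ± 21.4 CPM in the cerebellum and 159 ± 34.8 CPM in the frontal cortex (log2 fold change -0.83 ± 0.16, adjusted p = 0.00529). Its call held with the block (adjusted p = 0.00171) and in 6 of the 16 fits without 1 library, with an adjusted p of 0.0134 without the cerebellar library of pig 12821. MHC class I genes gave 0 calls of 12 tested by edgeR's quasi-likelihood test, by limma-voom and by DESeq2 (2 at an unadjusted p under 0.05), with a median of 0.012 (0.07 to 0.36 within the 6 pigs). Their most abundant members were alike in range, B2M at 778 to 1927 CPM against 613 to 1492 CPM and CALR at 415 to 641 against 378 to 608 CPM. The heavy chain genes SLA-1, SLA-2, SLA-3 and SLA-6 were not matched by symbol and were not tested.

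Lysosomal genes leaned to the cerebellum, with 1 called. CTSB, a cysteine protease of the lysosome, had 21.0, 27.9 and 94.1 CPM in the cerebellum and 5.02, 7.3 and 18.9 CPM in the frontal cortex (log2 fold change 2.05 ± 0.36, adjusted p = 0.00225). The groups did not overlap, the highest value came from pig 12821, and without that library the log2 fold change was 1.70 (adjusted p = 0.0025). With the pig as a block the adjusted p was 0.0153. Of 45 tested lysosomal hydrolases and membrane proteins 33 were on the cerebellar side, with a median of 0.143, and 6 had an adjusted p under 0.05, all of them higher in the cerebellum. They were CTSB, the proteases CTSZ (log2 fold change 1.13), NAPSA (1.11) and SCPEP1 (0.551), the acid alpha-glucosidase GAA (0.817) and NAGPA (0.986). NAGPA uncovers the mannose 6-phosphate tag that routes hydrolases to lysosomes. GNPTAB, the enzyme that starts that tag, went the other way and was among the steadiest of the called genes: 144, 165 and 182 CPM in the cerebellum against 236, 273 and 317 CPM in the frontal cortex (log2 fold change -0.75 ± 0.08, adjusted p = 1.77e-05, 0.00421 with the block). It was singled out after its values were seen.

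MITF, a transcription factor of the family that drives lysosomal genes, was higher in all 8 cerebellar libraries (46.5, 52.9 and 88.9 CPM) than in any frontal cortex library (13.6, 25.9 and 32.2 CPM), with a log2 fold change of 1.39 ± 0.20 and an adjusted p of 0.000329 (0.0198 with the pig as a block). It was the only call among 17 tested genes of the TFEB/MITF and folliculin axis, whose median was -0.0475. V-ATPase subunits, which acidify the lysosome, gave 0 calls of 13 tested by edgeR (2 at an unadjusted p under 0.05, 1 by limma-voom and 1 by DESeq2) with a median of -0.0772, and the abundant ATP6V0A1 was at 356 to 625 CPM against 374 to 642 CPM.

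Genes known from microglia of developing axon tracts and from disease-associated microglia had the second highest median of the lists, 0.406 over 14 tested, with CTSB called. SPP1, the secreted phosphoprotein osteopontin, was 61.1, 84.4 and 310 CPM in the cerebellum against 12.5, 36.0 and 56.8 CPM in the frontal cortex. The groups did not overlap, yet the adjusted p was 0.0166 without the block and 0.00162 with it. CSF1, the growth factor that sustains microglia, had 30.2 CPM at the median in the cerebellum and 7.68 in the frontal cortex (log2 fold change 1.88 ± 0.39, adjusted p = 0.0105). In whole hippocampus CSF1 was 21.9 CPM. APOE was abundant in both (3283 and 2791 CPM at the median, log2 fold change 0.37 ± 0.16, adjusted p = 0.244), and TYROBP and AXL had log2 fold changes of -0.227 and -0.0562. Within the 6 pigs the median difference over the list was 0.04 to 0.72, where that over all tested genes was -0.06 to 0.11. The cerebellar library of pig 12821 was the highest of its group for AEBP1, CTSB, CSF1, SPP1 and LGMN.

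Ligands and receptors of the CSF1, TGF-beta and TAM systems followed no common direction, with 1 call of 16 tested and a median of 0.106. GAS6, the ligand that bridges phosphatidylserine on dying cells to the TAM receptors, had 11.5, 29.5 and 52.3 CPM in the cerebellum and 2.89, 7.05 and 21.1 CPM in the frontal cortex (log2 fold change 1.82 ± 0.37, adjusted p = 0.00832, 0.00487 with the block). That call was kept in 3 of the 16 fits without 1 library and the adjusted p reached 0.0214 without the frontal cortex library of pig 12707. Its receptors were not called, at 0.247 for MERTK and -0.0562 for AXL. The CSF1 receptor differed by -0.0806 on the log2 scale. FGFR1, named after its values were seen, was 171 ± 22.8 against 91.5 ± 27.3 CPM (adjusted p = 0.00151).

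The largest change called higher in the cerebellum was AEBP1, a secreted collagen-binding protein also described as a transcriptional repressor, with 25.4, 44.2 and 213 CPM against 3.75, 10.9 and 19.1 CPM (log2 fold change 2.62 ± 0.46, adjusted p = 0.00339). Without the cerebellar library of pig 12821, which held the highest value, it was 2.10 (adjusted p = 0.0014). AEBP1 was more abundant in whole hippocampus (92.1 CPM) than in hippocampal microglia (16.6 CPM). SOAT1, which esterifies cholesterol for storage, had 36.3, 60.8 and 93.5 CPM against 7.05, 14.2 and 25.8 CPM, again without overlap (log2 fold change 1.98 ± 0.28, adjusted p = 0.000383). It was 1 of 2 calls among 36 tested genes of cholesterol, fatty acid and eicosanoid metabolism, whose median was -0.0354, and the other, the fatty acid transporter SLC27A4, was 44.3 ± 11.7 against 23.7 ± 5.29 CPM (adjusted p = 0.00543, 0.0137 with the block, kept in 6 of the 16 fits without 1 library, 0.0151 without the frontal cortex library of pig 12707).

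DMP1, an acidic secreted phosphoprotein of the bone and tooth matrix, was expressed at 426, 606 and 1086 CPM in the cerebellum and 120, 171 and 384 CPM in the frontal cortex, every cerebellar library above every frontal cortex library (log2 fold change 1.74 ± 0.22, adjusted p = 0.000161). Among the reference samples it was highest in hippocampal microglia (344 CPM), with 34.3 CPM in whole hippocampus and 16.6 CPM in alveolar macrophages. SPP1 belongs to the same family of phosphoproteins and lies on the same chromosome, 199903 bases away. FAM20C, the Golgi kinase that phosphorylates such secreted proteins, was also called higher in the cerebellum (log2 fold change 1.33, adjusted p = 0.00168, 0.00162 with the block), and is named after its values were seen.

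Other large differences were in genes of mixed roles. MTCL1, a microtubule crosslinking protein, had the smallest adjusted p of the cerebellar group (130, 177 and 199 CPM against 30.0, 47.6 and 74.2 CPM, log2 fold change 1.79 ± 0.17, adjusted p = 8.97e-06). B3GNT3, a glycosyltransferase, was 51.4 ± 11.4 against 16.6 ± 5.83 CPM. ALPK1, a kinase that senses a bacterial sugar nucleotide, was 64.0 ± 19.7 against 20.9 ± 9.77 CPM. CRIM1, a membrane protein that binds BMPs, was 183 ± 39.6 against 70.0 ± 23.1 CPM, and RAMP1, a co-receptor for the neuropeptide CGRP, 18.1 ± 7.43 against 5.78 ± 2.7 CPM. These 5 calls held with the pig as a block and in all 16 fits without 1 library. Receptors on the microglial surface and a transporter were among the called genes too. The receptors were EMR4, an adhesion G protein-coupled receptor (112 ± 17.5 against 46.2 ± 10.2 CPM, adjusted p = 1.77e-05), and FCRL1, an Fc receptor-like protein (46.2 ± 7.22 against 20.9 ± 4.86 CPM, adjusted p = 0.000163). The transporter was SLC2A5, which carries fructose (437 ± 78.7 against 238 ± 45.4 CPM, adjusted p = 0.000642). EMR4 was the 1 call among 16 purinergic, chemokine and lysophospholipid receptor genes (median -0.0656) and FCRL1 the 1 call among 19 genes of Fc receptors, ITAM signalling and Siglecs (median -0.0629). SLC2A5 was the only call among 32 homeostatic microglia genes, whose median was -0.0883. P2RY12, the receptor by which microglia sense ATP and ADP released on injury, had 336, 435 and 466 CPM in the cerebellum and 216, 711 and 1029 CPM in the frontal cortex, the lowest of them in pig 12599 (log2 fold change -0.72 ± 0.23, adjusted p = 0.0831). The groups overlapped, and in 2 of 6 pigs it was higher in the cerebellum.

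**Figure D3:**
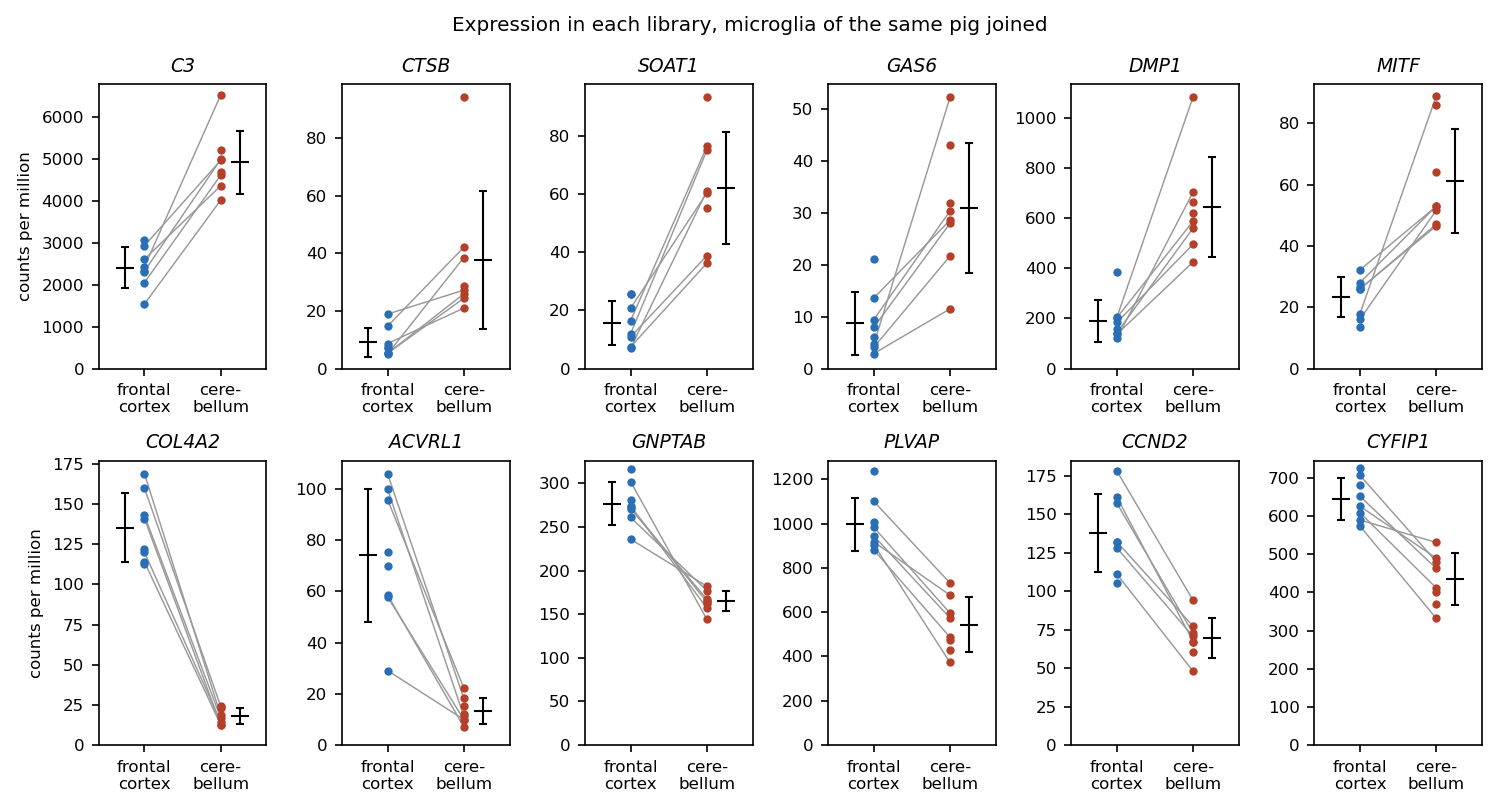
CPM of 12 genes in each frontal cortex (blue) and cerebellar (red) microglia library, with grey lines joining the 2 regions of the same pig and the mean ± SD of 8 libraries beside the points in black. The top row shows genes higher in the cerebellum, such as C3 (4014 to 6523 CPM against 1537 to 3066 CPM), and the bottom row genes higher in the frontal cortex, such as COL4A2 (12.6 to 24.1 CPM against 113 to 169 CPM).

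Immediate early genes, transcription factors and feedback regulators that switch on within minutes of a stimulus or of handling, had the highest median of the lists (0.603 over 19 tested). In 17 of the 19 the cerebellar side was higher and 3 were called. JUN was 165, 304 and 517 CPM against 65.7, 101 and 263 CPM (log2 fold change 1.38 ± 0.27, adjusted p = 0.00753), and the small GTPase RHOB 99.4, 152 and 249 CPM against 39.1, 82.8 and 126 CPM (adjusted p = 0.00946). Both calls were lost with the pig as a block (adjusted p = 0.0692 and 0.171) and in most fits that left out 1 library: JUN kept its call in 3 of 16 (up to 0.0191, without the frontal cortex library of pig 12707) and RHOB in 2 of 16 (up to 0.0209, without the cerebellar library of pig 12583). BTG1, an inhibitor of proliferation, was steadier at 113, 127 and 141 CPM against 49.4, 70.3 and 91.1 CPM (log2 fold change 0.83 ± 0.12, adjusted p = 0.000422, 0.00428 with the block). FOS and EGR1 had log2 fold changes of 1.19 and 0.603 and did not pass (adjusted p = 0.286 and 0.373). The median within a pig ran from -0.13 (pig 12902) to 1.40 (pig 12847). Of the heat shock genes, 16 tested with a median of -0.0164, HSPB1 was called (69.5 ± 18.9 against 37.6 ± 8.95 CPM, adjusted p = 0.00761, 0.0232 with the block, kept in 4 of 16 fits without 1 library, 0.0184 without the cerebellar library of pig 12821).

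COL4A2 (ENSSSCG00000009545) had the largest difference of the called genes with a symbol, in either direction. It encodes a chain of type IV collagen, the network-forming collagen of basement membranes. It had 12.6, 17.7 and 24.1 CPM in the cerebellum and 113, 132 and 169 CPM in the frontal cortex, a gap with no library in between (log2 fold change -2.90 ± 0.17, adjusted p = 1.64e-09, 1.08e-06 with the block). COL4A1, the partner chain with which it is assembled, was lower in the cerebellum by less, 16.8, 27.3 and 31.9 CPM against 32.7, 39.6 and 56.4 CPM (log2 fold change -0.78 ± 0.16, adjusted p = 0.0085, 0.0154 with the block, kept in 3 of 16 fits without 1 library, 0.0196 without the cerebellar library of pig 12583). Both are also markers of vessel wall cells and members of that marker list, so their own difference is part of its sum. The list summed to 167 to 494 CPM in the cerebellum and 409 to 712 CPM in the frontal cortex, mostly from COL1A2. Its defining mural markers PDGFRB, RGS5, ACTA2, KCNJ8, NOTCH3 and MYH11 were each at a median under 1 CPM in both regions. In whole hippocampus COL4A2 was 96.0 CPM and in hippocampal microglia 31.9 CPM.

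The 2 collagen genes lie head to head on chromosome 11 of Sscrofa11.1, COL4A1 on the minus strand (76858332 to 76997409) and COL4A2 on the plus strand (76996885 to 77161617), so that they share 525 bases at their starts. The library kit keeps strand, but whether the counting used it is not given in the sources used here, so reads of that stretch are uncertain between the 2 genes. Promoter windows, from 250 bases before to 50 after the RefSeq start of a gene, are shown for COL4A2, which lies at that shared start, and for DMP1, SLC2A5 and ITGA9 as called genes that hold a motif searched for. They read 5′ to 3′ on the strand of the gene, with capitals for the E-box CACGTG, the core of the element bound by MITF and its relatives, and for the AP-1 site TGANTCA, bound by JUN dimers.
COL4A2, chr11:76996635-76996934, plus strand: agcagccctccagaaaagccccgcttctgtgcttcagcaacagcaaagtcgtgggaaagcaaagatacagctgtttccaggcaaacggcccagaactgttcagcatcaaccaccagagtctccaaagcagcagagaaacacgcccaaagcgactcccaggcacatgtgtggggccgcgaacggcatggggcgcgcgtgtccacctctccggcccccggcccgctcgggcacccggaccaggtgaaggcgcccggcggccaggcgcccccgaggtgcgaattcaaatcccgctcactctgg
DMP1, chr8:131319349-131319648, minus strand: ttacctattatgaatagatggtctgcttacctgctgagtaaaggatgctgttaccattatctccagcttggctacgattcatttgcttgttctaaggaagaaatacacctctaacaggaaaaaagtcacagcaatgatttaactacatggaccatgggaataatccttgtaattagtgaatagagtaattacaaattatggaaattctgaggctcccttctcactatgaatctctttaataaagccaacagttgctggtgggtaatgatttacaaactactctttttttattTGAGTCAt
SLC2A5, chr6:69535745-69536044, minus strand: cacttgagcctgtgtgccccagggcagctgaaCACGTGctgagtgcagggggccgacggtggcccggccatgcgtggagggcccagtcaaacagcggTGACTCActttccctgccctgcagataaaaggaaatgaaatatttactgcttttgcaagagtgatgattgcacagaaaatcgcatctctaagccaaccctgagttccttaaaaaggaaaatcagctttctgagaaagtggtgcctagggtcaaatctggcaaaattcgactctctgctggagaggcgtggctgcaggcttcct
ITGA9, chr13:22298247-22298546, plus strand: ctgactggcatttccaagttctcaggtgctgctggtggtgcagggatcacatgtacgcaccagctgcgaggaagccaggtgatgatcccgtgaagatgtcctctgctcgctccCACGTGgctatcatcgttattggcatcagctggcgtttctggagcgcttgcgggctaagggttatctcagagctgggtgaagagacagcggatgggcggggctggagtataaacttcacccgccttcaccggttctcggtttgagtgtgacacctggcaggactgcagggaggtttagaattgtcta

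COL4A2 held neither motif, ITGA9 held 1 copy of CACGTG, DMP1 1 AP-1 match beginning 42 bases after its start, and SLC2A5 1 of each. Both motifs read the same on either strand, and although they can share their end bases, the matches of SLC2A5 lay apart, beginning 218 and 153 bases before the start. CACGTG was found in 5 of 54 windows of genes higher in the cerebellum (9.26%), 6 of 40 of genes higher in the frontal cortex (15%) and 670 of 6420 of all tested genes with a window (10.4%). TGANTCA was found in 3 of 54 (5.56%), 2 of 40 (5%) and 281 of 6420 (4.38%). With 2 to 6 windows behind each share of the called genes, nothing was read from their distance to the background.

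Among further genes higher in the frontal cortex, ACVRL1, a receptor for BMP9 and BMP10, had 7.1, 11.7 and 22.3 CPM in the cerebellum and 29.1, 72.6 and 106 CPM in the frontal cortex (log2 fold change -2.49 ± 0.26, adjusted p = 1.77e-05). PLVAP, a glycoprotein known from the diaphragms of fenestrated endothelium, was abundant in both regions at 373, 530 and 732 CPM against 882, 965 and 1240 CPM, without overlap (log2 fold change -0.89 ± 0.13, adjusted p = 0.000383). Whole hippocampus held 19.2 CPM of PLVAP against 774 CPM in the microglia sorted from it. The endothelial marker list summed to 175 to 368 CPM (median 283) in the cerebellum and 196 to 427 CPM (median 341) in the frontal cortex, nearly all of it from TIE1 and EGFL7, the 2 members abundant enough to be tested, with log2 fold changes of -0.258 and -0.159 that did not pass. Of its defining members, CDH5, KDR, ESAM and SLCO1C1 were at 0 CPM at the median in both regions and PECAM1 at 5.77 and 8.74 CPM. The part of endothelial RNA in the PLVAP difference was not tested. ITGA9, an integrin chain that binds osteopontin and tenascin, was 16.5, 30.0 and 56.1 CPM against 53.7, 89.2 and 133 CPM (log2 fold change -1.43 ± 0.26, adjusted p = 0.00319). Of 17 tested integrins and partners (median -0.0326), the other calls went the opposite way, ITGAL, the alpha chain of LFA-1 (362 ± 53.7 against 231 ± 31.5 CPM, adjusted p = 0.00122, 0.017 with the block), and the adhesion scaffold CASS4 (48.1 ± 11.0 against 27.0 ± 3.94 CPM, adjusted p = 0.00235, 0.0149 with the block). The lipid raft protein RFTN1 (log2 fold change -1.72, adjusted p = 0.00108, 0.0143 with the block), TP53I11 (-1.65), the microtubule-associated EML1 (-1.48), IGFBP4, which binds insulin-like growth factors (-1.13), NDRG2 (-1.12) and the tetraspanin CD82 (-1.07) completed the named genes by size, beside the small nucleolar RNAs SNORD57 (-1.43), SNORD45A (-1.35) and SNORD89 (-1.26), whose calls were lost with the block (adjusted p = 0.0287, 0.108 and 0.0166). The SNORD57 call was kept in 6 of the 16 fits without 1 library (0.0147 without the cerebellar library of pig 12750) and that of SNORD45A in 14 (0.0103 without the cerebellar library of pig 12583). The cell cycle gene CCND2 was 69.6 ± 13.3 against 138 ± 25.3 CPM (adjusted p = 0.000179) and was named after its values were seen.

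The largest difference of all called genes was in ENSSSCG00000044051, which has no symbol in the tables used, at 2.19 ± 1.88 CPM in the cerebellum and 47.0 ± 12.6 CPM in the frontal cortex (log2 fold change -4.44 ± 0.66, adjusted p = 0.00112, 0.0356 with the block). It was 62.4 CPM in whole hippocampus. In all, 95 of the 104 called genes had a symbol.

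Actin regulators and small GTPases leaned to the frontal cortex. The list holds ARPC5 and RAP1B, which the study named from these samples as low in the cerebellum. Its lean is therefore not independent evidence. Of 46 tested, 36 were lower in the cerebellum, with a median of -0.185, and 5 were called lower there against 1 higher. MTSS1, which links membranes to actin, was 66.5 ± 10.2 against 119 ± 14.8 CPM (adjusted p = 0.000161). CYFIP1, a subunit of the WAVE complex, had 332, 437 and 531 CPM against 574, 639 and 725 CPM (adjusted p = 0.00182, 0.0212 with the block). ARPC5, a subunit of the ARP2/3 actin complex, was 119 ± 11.9 against 179 ± 26.2 CPM (adjusted p = 0.00178), and the Ral GTPase RALB, on which RGL1 acts, 54.3 ± 4.91 against 83.5 ± 11.2 CPM (adjusted p = 0.00117, 0.02 with the block). None of these 4 genes overlapped between regions. RGL1, an exchange factor for Ral GTPases, was 49.8 ± 9.69 against 96.2 ± 18.4 CPM (adjusted p = 0.00108, singled out after its values were seen). RAB10, also called lower, belongs to the endosome list as well and is given there. RHOB was the gene called in the other direction and is counted among the immediate early genes too.

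Endosome and vesicle traffic genes showed a similar lean, with 33 of 39 tested lower in the cerebellum, a median of -0.23, 3 called lower and 1 higher. The list's median was negative in 6 of 6 pigs, from -0.32 to -0.02. Its member SNX3 was named by the study from these samples as low in the cerebellum, and RAB10 is counted in the actin list too. The GTPase RAB10 was 60.8 ± 5.38 against 91.1 ± 17.7 CPM (adjusted p = 0.00664, 0.0137 with the block, kept in 6 of 16 fits without 1 library, 0.0189 without the frontal cortex library of pig 12707). The sorting nexin SNX3 was 52.2 ± 6.33 against 81.4 ± 18.5 CPM (adjusted p = 0.00946, 0.0253 with the block, kept in 3 of 16, 0.0234 without the same library). TBC1D14, a regulator of recycling endosomes and autophagy, was 59.9 ± 12.9 against 98.2 ± 18.1 CPM (adjusted p = 0.00753, 0.0757 with the block, kept in 4 of 16, 0.0177 without the frontal cortex library of pig 12847). RAB10 did not overlap between regions, while SNX3 and TBC1D14 did. STX11, a syntaxin of immune cells, was called higher in the cerebellum (18 ± 4.08 against 10.5 ± 1.65 CPM, adjusted p = 0.00753, 0.062 with the block, kept in 6 of 16, 0.0209 without the cerebellar library of pig 12583).

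Of 16 tested genes of apoptosis and cell survival, 4 were called, all higher in the frontal cortex, while 10 of the 16 were on the cerebellar side and the median was 0.0934. STK17B, a kinase linked to apoptosis, was 43.5 ± 10.8 against 81.7 ± 16.9 CPM (adjusted p = 0.00231, 0.0182 with the block). TNFRSF21, death receptor 6, was 97.8 ± 19.5 against 159 ± 29.5 CPM (adjusted p = 0.0037, 0.0153 with the block, kept in 15 of 16 fits without 1 library, 0.0109 without the frontal cortex library of pig 12707). The translation inhibitor PDCD4 and the nuclear protein PTMA had log2 fold changes of -0.59 and -0.52 (adjusted p = 0.00538 and 0.00938, 0.0111 and 0.0496 with the block). They kept their calls in 8 and 5 of the 16 fits, with adjusted p of 0.0148 without the cerebellar library of pig 12750 and 0.0205 without the frontal cortex library of pig 12847. All 4 calls were lost with the block in edgeR and held with it in limma-voom. PDCD4 and PTMA were named by the study from these samples as low in the cerebellum, so their calls are not independent evidence.

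The lists of toll-like receptors and of inflammatory genes gave a single call between them. TLR4, the receptor for bacterial lipopolysaccharide, was the 1 call of 15 toll-like receptor genes (median -0.0228), at 108 ± 10.1 against 149 ± 23.4 CPM (log2 fold change -0.48 ± 0.10, adjusted p = 0.00946, 0.0271 with the block, kept in 4 of 16, 0.0247 without the frontal cortex library of pig 12707). Inflammatory cytokines and NF-kB targets gave 0 calls of 21 tested by edgeR (7 at an unadjusted p under 0.05, 0 by limma-voom, 1 by DESeq2, 1 with the block in edgeR and 3 in limma-voom) with a median of 0.0588. The list's median was positive in 6 of 6 pigs (0.02 to 0.40), and BCL6, the pattern sensor NOD1 (log2 fold change 0.411) and the chemokine CCL8 (0.695) had an adjusted p under 0.05, all higher in the cerebellum. The inflammasome sensor NLRP3 was at 527 to 790 CPM against 437 to 724 CPM. TNF, IL1B, IL1RN and CCL20 were not matched by symbol and are not among the 21 tested. In glycolysis and hexose transport (25 tested, median 0.0504), SLC2A5 was called higher in the cerebellum and GPD1L, a glycerol 3-phosphate dehydrogenase, higher in the frontal cortex (28.4 ± 5.93 against 50.5 ± 12.7 CPM, adjusted p = 0.00436, 0.0602 with the block, kept in 12 of 16, 0.0112 without the cerebellar library of pig 12891).

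Interferon-stimulated genes had the lowest median of the lists, -0.41 over 31 tested, and 26 of the 31 were lower in the cerebellum, yet edgeR called 0 (8 at an unadjusted p under 0.05, 0 by limma-voom, 1 by DESeq2, 1 with the pig as a block). The gene that passed with the block was IFIT1, an RNA sensor, with 27.3 CPM at the median in the cerebellum and 54.8 CPM in the frontal cortex (adjusted p = 0.0341, 0.00924 with the block). The antiviral GTPases MX1 and MX2, its most abundant members, had 129, 251 and 394 against 232, 317 and 610 CPM, and 148, 280 and 460 against 292, 451 and 665 CPM. Both were lower in the cerebellum in 6 of 6 pigs, although the groups overlapped (adjusted p = 0.304 and 0.112). Within the 6 pigs the list's median ran from -0.73 to -0.05.

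**Figure D4:**
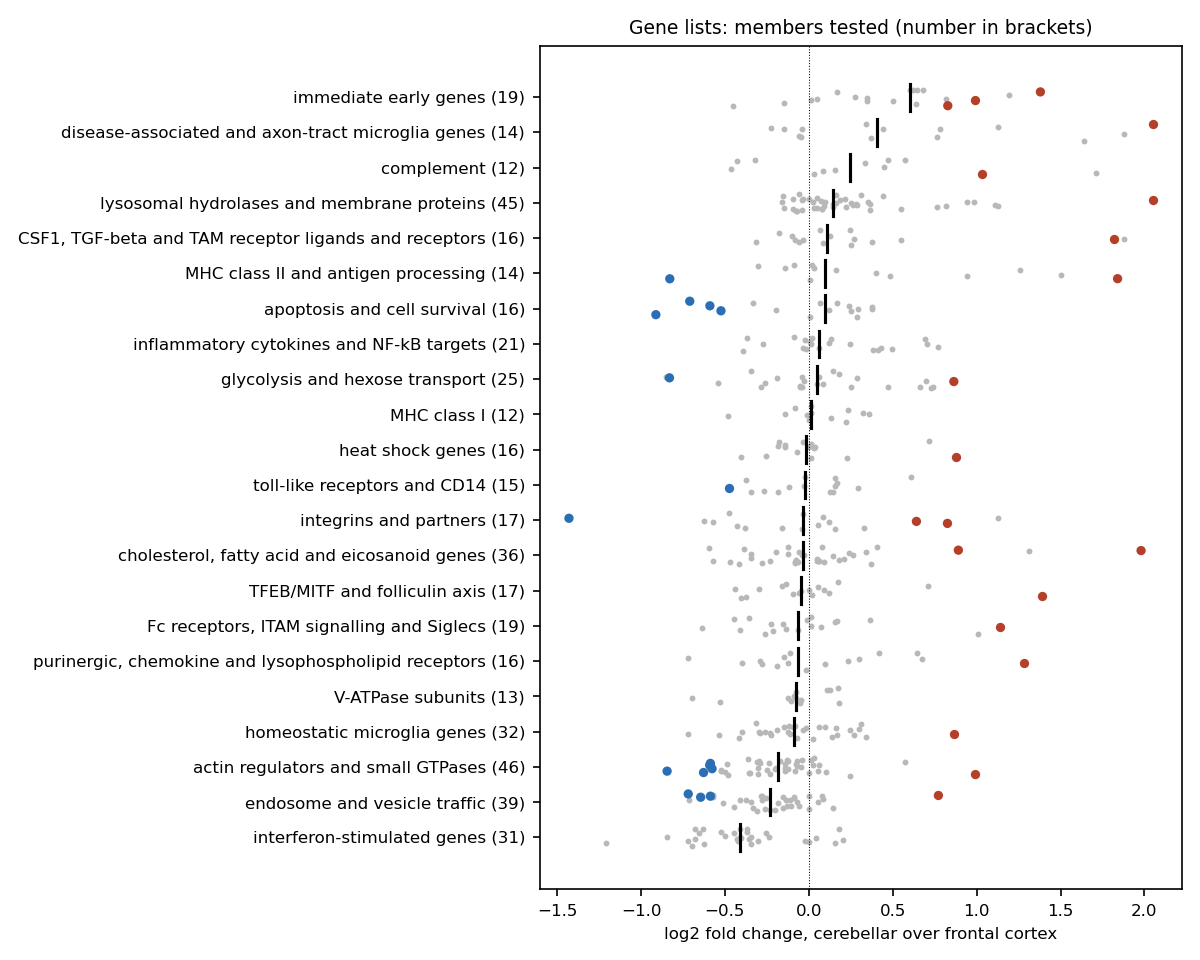
Log2 fold change of cerebellar over frontal cortex microglia for the tested members of 22 gene lists, with genes called higher in the cerebellum in red, higher in the frontal cortex in blue and the others in grey. Black bars mark the median of each list, from 0.603 for immediate early genes to -0.41 for interferon-stimulated genes, beside a median of -0.00205 over all tested genes.

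Of 24 genes that the study named for regional variation, 8 were called higher in the cerebellum and 4 higher in the frontal cortex, and 9 more had an adjusted p between 0.01 and 0.05. The study compared 3 regions in pairs by limma-voom and named some of the 24, such as P2RY12 and LGMN, as members of co-expression clusters. Its selection and the calls here are therefore unlike in test and regions. The list was drawn from these samples and is not independent evidence of direction. Those just outside the threshold included the growth factor CSF1, CD74, the hexokinase HK2 (adjusted p = 0.0137), the lysophosphatidic acid receptor LPAR5 (0.0149), the repressor BCL6 (0.018, 0.00321 with the block), the small GTPase RAP1B (0.0147) and the gluconeogenic enzyme FBP1 (0.0121, 0.00727 with the block). FBP1 and RAP1B were lower in the cerebellum. The remaining 3, P2RY12, the asparaginyl endopeptidase LGMN (log2 fold change 0.94, adjusted p = 0.0798) and MS4A7 (-0.20, 0.495), did not pass at 0.05. SLC15A3, a peptide transporter of the lysosome, was called higher in the cerebellum (66.4 ± 16.3 against 38.6 ± 8.14 CPM, adjusted p = 0.00761, 0.0106 with the block, kept in 2 of 16, 0.0189 without the frontal cortex library of pig 12707).

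Hippocampal microglia, which were not used to choose any gene, lay between the other regions for most called genes. Their mean was between the cerebellar and frontal cortex means for 55 of the 59 genes higher in the cerebellum and 41 of the 45 higher in the frontal cortex, and for 40.1% of all tested genes. These shares are not a test, since called genes have wider gaps for a mean to fall into. On a log2 scale where 0 is the frontal cortex mean and 1 the cerebellar mean, the median position was 0.53 (quartiles 0.32 to 0.66) for the former and 0.43 (0.21 to 0.60) for the latter. Whole hippocampus exceeded hippocampal microglia for 13 of the 59 and 16 of the 45 genes, and by over 4 times for 3 and 2.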

How the data were processed

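RNA-seq of sorted microglia was analysed in 8 cerebellar and 8 frontal cortex libraries, grouped by region from the labels. The authors prepared stranded total RNA libraries, aligned paired reads with HISAT2 to Sscrofa11.1 and made the deposited gene-level counts with StringTie, which rebuilds counts from coverage. Versions are not given in the sources used here. The comparison, and with it its members, and the gene lists were chosen with earlier results of these data known, while each library's region came from its label.

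Counts were scaled by TMM. Genes with over 10 CPM (counts scaled to a library of 1000000) in all 8 libraries of a region (7792) were tested by edgeR 4.0.16 (quasi-likelihood, robust, R 4.3.3) on region, with Benjamini-Hochberg adjusted p under 0.01, and standard errors were taken as the absolute log2 fold change over the square root of F. Levels are CPM over all counts. Those of whole hippocampus and of the hippocampal microglia set beside it were scaled over all 31 libraries, and hippocampal positions over the 24 microglia libraries. limma 3.58.1, DESeq2 1.42.0, other scalings, filters and sample sets and the removal of each library were alternatives, and the code was tested on simulated data. Libraries held 18438494 to 36417294 counts, and n counts animals, each giving 1 library per region.

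Equal ear tags mark the same pig, so libraries could be paired by animal. The main fit was on region alone and did not use this pairing. It entered only the fits with the pig as a block and the counts and medians within pigs. The consensus correlation within a pig was 0.373 by limma. Deviations from the region means correlated at 0.0678 to 0.485 within a pig, and 5 of 6 pairs correlated best with their own pig. Genes named were the 12 of each direction with the largest fold change, a symbol and the same sign in 6 pigs, up to 4 called members of each list with the smallest adjusted p or, with none called, the 1 or 2 most abundant, and 24 genes named by the study. Others (FAT2, SPP1, APOE, ELAVL4, COL4A1, PLVAP, list members quoted for contrast and those marked in the text) were chosen after their values were seen. Promoter sequence was read from the RefSeq genome of Sscrofa11.1, for 94 of 104 called genes, and 1 window is not reported here.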

Additional observations from a re-analysis of the deposited data

Results flagged for a closer look

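In 202 groups of 8 values (named genes, marker sums and library measures), 32 values in 11 libraries lay far from the rest of their group by Dixon's criterion at the 95% level. Chance alone flags about 1 in 20 of the groups searched. No explanation was tested for any of them.

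In the cerebellar library of pig 12821 AEBP1 (213 CPM), CTSB (94.1), CSF1 (77.8), SPP1 (310) and LGMN (112) were far above the others. In the cerebellar library of pig 12599 DMP1 (1086 CPM), NAPSA (47.9) and ATP6AP1 (147) were high and ELAVL4 (13.2) low. The frontal cortex library of pig 12599 was high for CSF1 (22.5 CPM), RFTN1 (38), and summed neuron (493) and erythroid markers (185), and low for NLRP3 (437). The frontal cortex library of pig 12891 was high for FAT2 (81.1 CPM), SLA-DQA1 (18.4) and granule neuron markers (203), and low for TBC1D14 (57.9). Its cerebellar library was high for FCRL1 (61.7 CPM) and RFTN1 (13.2).

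Both libraries of pig 12902 had the highest mitochondrial share of their region (1.1% in the cerebellum and 1.63% in the frontal cortex). Its frontal cortex library was also high for JUN (263 CPM) and ELAVL4 (20.6) and low for pericyte, smooth muscle and fibroblast markers (409). The frontal cortex library of pig 12720 was high for DMP1 (384 CPM), NAPSA (28.8) and SNORD57 (139). The cerebellar library of pig 12847 was high for B2M (1927 CPM) and PTMA (340), that of pig 12750 for C2 (128), and the frontal cortex library of pig 12707 for GPD1L (81.1).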

How the results depend on the processing

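Genes higher in the cerebellum and in the frontal cortex, 59 and 45 as reported, numbered 147 and 126 with DESeq2, 74 and 44 with limma-voom, 59 and 47 with RLE factors, 44 and 51 scaled by library size, 38 and 34 with filterByExpr, 31 and 26 with no filter, 162 and 143 at an adjusted p under 0.05, 122 and 86 fitted over 24 microglia libraries, 114 and 121 over all 31, and 121 and 85 with sample quality weights. With the pig as a block (pairing by animal) they were 42 and 30 in edgeR and 175 and 126 in limma-voom. Leaving out 1 library gave 43 to 73 and 29 to 63, the lowest frontal cortex count without the cerebellar library of pig 12583. Chosen after seeing the data, the 6 shared pigs without a block gave 18 and 11, removal of pig 12599 67 and 54, and the block without that pig 56 and 47. The cause of these moves was not tested.

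Of the 63 named genes that were called, 31 missed the threshold with the pig as a block in edgeR and 0 with it in limma-voom, 30 with no filter, 43 in the 6 pigs without a block, 2 to 21 without 1 library and 0 with DESeq2; all 63 kept their direction. Of the 86 named genes, 4 changed sign, all with differences near 0. TRAF1 (0.01) was -0.08 by library size, -0.02 with either filter change, -0.00391 with weights, -0.06 without pig 12599 and -0.11 to 0.12 without 1 library. B2M (0.000968) was -0.00274 with DESeq2 and RLE, -0.08 by library size, -0.04 with filterByExpr, -0.03 with no filter, -0.01 over 31 libraries and -0.17 to 0.08 without 1 library. CALR (-0.01) was 0.04 with the block in edgeR, 0.01 in limma-voom, 0.0017 with weights, 0.02 in the 6 pigs, 0.05 with the block without pig 12599 and -0.07 to 0.04 without 1 library. NLRP3 (-0.01) was 0.03 with the block in edgeR, 0.00159 in limma-voom, 0.02 in the 6 pigs and -0.07 to 0.02 without 1 library.

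Region and the mix of grey and white matter cannot be told apart, nor can sorted cells and RNA carried over from other cells. The floor of 0.0824 to 0.163 CPM lay below the minimum tested. With overlap, cerebellar libraries held fewer counts at the median than frontal cortex libraries (23930658 against 29274853). Their 20 top genes took a larger share of counts (25.9% against 20.1%) and mitochondrial genes a smaller one (0.416% against 0.65%). The part of these differences in any gene's result was not tested.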
